A study of Mus musculus with 2 samples.

Results

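Myb binding was examined at 10 genes of the cell cycle inhibitors and the p53 axis. They were the CDK inhibitors *Cdkn1a*, *Cdkn1b*, *Cdkn1c*, *Cdkn2a*, *Cdkn2b*, *Cdkn2c* and *Cdkn2d*, the tumor suppressors *Trp53* and *Rb1*, and *Mdm2*, whose product limits p53. A Myb peak was assigned to a gene when its summit, the base with the highest Myb signal, lay inside the gene or within 30 kb of it in the GENCODE vM21 annotation. This rule took 49 of the 25793 Myb peaks and gave 9 of the 10 genes at least 1 peak. *Cdkn2a* and *Cdkn2b*, which are neighbors, shared 1 of these peaks, so the 49 peaks made 50 pairs of a gene and a peak.

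The peaks came from ChIP-Seq of WT mouse lineage-negative (Lin–) bone marrow cells, the fraction left after cells carrying markers of mature blood lineages are removed, in which hematopoietic stem and progenitor cells (HSPCs) are enriched. Chromatin was precipitated either with anti-Myb antibody or with normal rabbit IgG. Both groups had the same WT genotype and cell type, with no treatment named in the labels. Each was 1 library from Lin– cells of a purity above 80%. The methods of the study define WT as mice with floxed *Ep300* and no Cre, which were injected with poly(I:C). Whether the mice behind these libraries were injected is not stated. The study used the experiment to list Myb target genes in normal progenitors. The ages of the mice and the number pooled are not given in the labels. With no replicate library, the values describe 1 Myb library, give no error between mice, and average over the mixture of cells in the Lin– fraction.

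Myb is a sequence-specific transcription factor that HSPCs need to proliferate, and it recognizes a short element with the core AAC. Members of the Cip/Kip family of CDK inhibitors (*Cdkn1a*, *Cdkn1b* and *Cdkn1c*) bind cyclin and CDK complexes, whereas members of the Ink4 family (*Cdkn2a* to *Cdkn2d*) bind CDK4 and CDK6. Both keep the retinoblastoma protein, the product of *Rb1*, in the form that holds back E2F factors. The p53 protein, encoded by *Trp53*, induces *Cdkn1a* and also *Mdm2*, whose product marks p53 for degradation.

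The sequence around the summits was read from the mm10 (GRCm38) genome, on the forward strand and 5′ to 3′. The Myb motif was CAACGG or CAACTG, or the same words beginning with T instead of C (TAACGG or TAACTG), on either strand and wholly within 50 bp of the summit. The 5 peaks with the motif are shown first, followed by a peak in *Cdkn1a* that shares an E2F motif with the *Cdkn2d* promoter. Capitals mark Myb motifs and E2F motifs. The E2F motif was any of TTTCCCGC, TTTGGCGC, TTTCGCGC and TTTGCCGC on either strand, and appears here as GCGGGAAA, the opposite strand of TTTCCCGC. The window at the start of *Rab44* is cut to 30 bases because it runs into a UTR.
Start of Rab44, downstream of Cdkn1a, chr17:29114135-29114164: caagactgttgaCAGTTGcagagtgtgtgg
Promoter of Cdkn2d, chr9:21291524-21291624: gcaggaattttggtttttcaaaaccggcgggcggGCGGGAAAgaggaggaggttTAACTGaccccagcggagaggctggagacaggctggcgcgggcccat
Near Atp1b2, downstream of Trp53, chr11:69609548-69609648: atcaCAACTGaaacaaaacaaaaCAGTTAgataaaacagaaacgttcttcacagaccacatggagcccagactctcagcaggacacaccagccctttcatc
Upstream of Mdm2, chr10:117731668-117731768: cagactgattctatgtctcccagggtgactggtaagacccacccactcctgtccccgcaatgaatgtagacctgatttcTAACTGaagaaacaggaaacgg
Promoter of Rb1, chr14:73326311-73326411: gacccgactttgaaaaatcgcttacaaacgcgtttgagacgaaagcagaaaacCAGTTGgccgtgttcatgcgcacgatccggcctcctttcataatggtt
First intron of Cdkn1a, chr17:29095020-29095120: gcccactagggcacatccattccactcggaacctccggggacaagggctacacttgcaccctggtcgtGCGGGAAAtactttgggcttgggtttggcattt

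The 4 peaks with the highest fold enrichment are shown next, since they stand out by strength. None of them had a Myb motif within 50 bp of the summit, so no capitals appear.
Near Lockd, downstream of Cdkn1b, chr6:134928404-134928504: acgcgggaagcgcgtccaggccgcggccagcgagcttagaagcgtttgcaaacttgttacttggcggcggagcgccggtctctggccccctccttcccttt
Near Ap1m2, upstream of Cdkn2d, chr9:21313576-21313676: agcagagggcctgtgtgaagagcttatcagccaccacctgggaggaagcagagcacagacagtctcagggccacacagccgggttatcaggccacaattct
Intron 17 of Rb1, chr14:73222634-73222734: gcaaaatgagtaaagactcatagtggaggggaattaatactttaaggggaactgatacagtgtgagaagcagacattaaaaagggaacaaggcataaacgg
Near Rab44, downstream of Cdkn1a, chr17:29111543-29111643: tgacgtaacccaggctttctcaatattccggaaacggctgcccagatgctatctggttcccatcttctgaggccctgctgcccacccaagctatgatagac

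Fold enrichment, the measure of binding used throughout, is the Myb signal at the summit over the IgG background, with 1 added to each. At 6 of the 49 summits and 12.4% of all summits, this background was the lowest value, which many peaks share. A value shared this widely is not read as a local measurement. The Myb signal is the number of Myb reads times a scale of 0.769, and Myb reads are given before this scaling. Over the 49 peaks the median was 4.67, with a 95% interval of 4.17 to 5.44 from exact binomial ranks, and the values ran from 2.97 to 12.6. The median of all 25793 peaks was 4.51. Myb reads at the summit had a median of 21 (95% interval, 17 to 24), which held the 18 of all peaks. Fewer than 20 reads lay at 42.9% of the 49 summits and at 56.1% of all summits. Intervals on single peaks are exact Poisson 95% intervals on these reads and cover counting error only.

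Peaks were found at most of the 10 genes, as they were at most genes of the genome. A summit in the gene or within 30 kb was present for 9 of the 10 genes and for 62.8% of 21938 protein-coding genes. A promoter peak, with its summit within 3 kb of an annotated start site of the gene, was present for 8 of the 10 (44.4% to 97.5%), against a background of 39.9%. Within 500 bp of a start, the number was 4 of 10 (*Cdkn1a*, *Cdkn1b*, *Cdkn2d* and *Mdm2*), against 31.8% of protein-coding genes. When peaks were limited to a −log10 q-value of 5 or more, 8 of the 10 genes kept a peak within 30 kb, against 47.2% of protein-coding genes. The 10 genes had a median of 5.5 peaks each, from 0 to 9, and all protein-coding genes had a median of 1. The windows of the 10 genes were not longer, with a median of 68.0 kb against 77.4 kb for all genes. Per 100 kb of window the medians were 6.03 and 1.38 peaks.

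**Figure D1:**
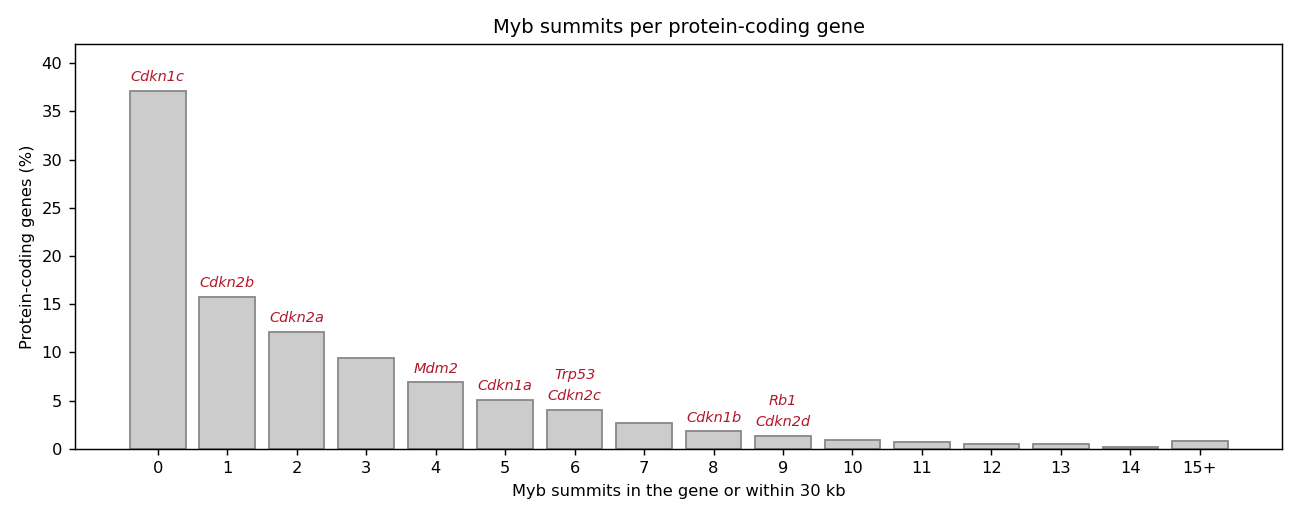
Percentage of 21938 protein-coding genes (vertical axis) by the number of Myb summits in the gene or within 30 kb (horizontal axis, 15 or more pooled in the last bar), with the 10 genes named above the bar that holds them. *Cdkn1c*, with 0 peaks, is in the highest bar, and *Cdkn2d* and *Rb1*, with 9 each, are to the right.

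The peaks were spread over introns, flanks and promoters. Of the 49, 22 lay inside 1 of the genes, 15 upstream and 12 downstream. Among those inside, 14 were in introns, 4 in a 5′ UTR, 3 in a 3′ UTR and 1 in a coding exon. A start site of the assigned gene lay within 3 kb of 21 summits, another 17 were within 3 kb of start sites of other genes only, and 11 were farther than that from every start site. Thus 77.6% (exact 95% interval, 63.4% to 88.2%) were at a promoter of some gene, against 57.6% of all peaks. The rule admits only summits in or near a gene, whereas all peaks were taken at any distance. These shares are therefore not on equal terms, and the difference is not read as a trait of the 49. Within 1 kb of any start site the share was 55.1% (40.2% to 69.3%), against 41.6% of all peaks. Within 500 bp it was 30.6% (18.3% to 45.4%), against 31.9%. At both of these widths the 49 could not be told apart from all peaks. The nearest protein-coding start site belonged to 1 of the 10 genes for 29 of the 49 peaks, and a neighboring gene was closer for the others.

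**Figure D2:**
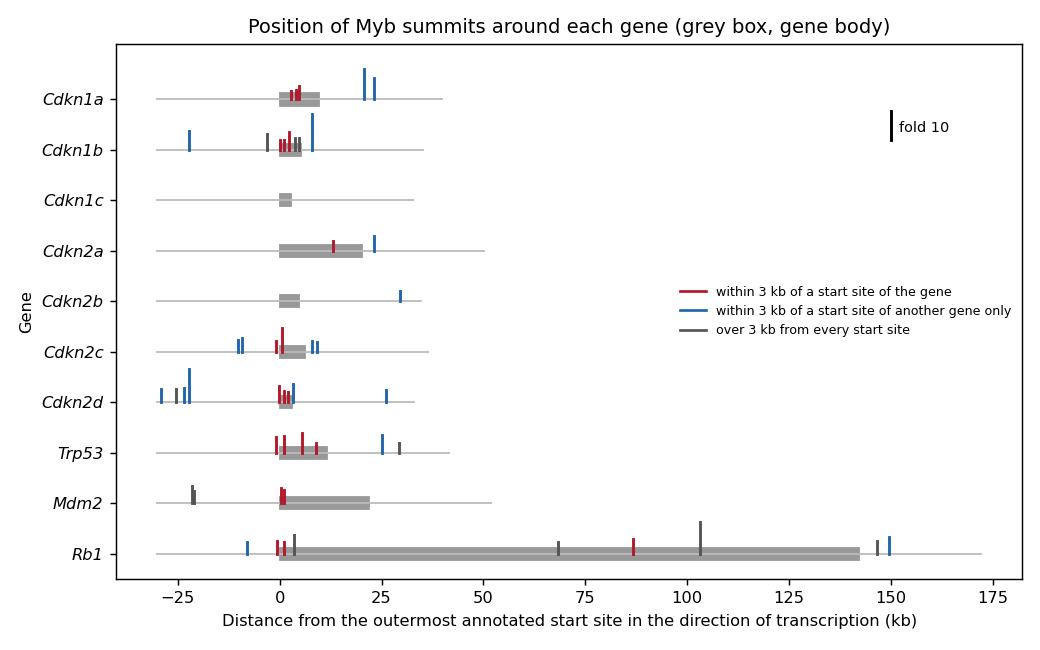
Position of each Myb summit relative to the outermost annotated start site of its gene, in kb in the direction of transcription, with the gene body as a grey box and the height of each line proportional to fold enrichment (scale bar, fold 10). The tallest lines at *Cdkn1a*, *Cdkn1b*, *Cdkn2d* and *Rb1* lie 8053 to 103138 bp from 0, and promoter peaks at inner start sites also lie away from 0, as far as 86788 bp at *Rb1*.

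Among the Cip/Kip inhibitors, *Cdkn1a* and *Cdkn1b* had peaks in their bodies and strong peaks at neighboring genes, whereas *Cdkn1c* had none. *Cdkn1a* encodes p21, the inhibitor that p53 induces, and lies on chromosome 17 from 29090976 to 29100727 on the forward strand. It had 5 peaks, a number that 18.6% of protein-coding genes reach. The 3 inside the gene were weak or intermediate. The first, 60 bp from an internal start site in a 5′ UTR and 2865 bp from the outermost start, had a fold enrichment of 2.97 from 18 reads (10.7 to 28.4). The other two, in the first intron 1289 and 1883 bp from the same start, had fold enrichments of 3.12 and 4.66, and the nearest start of this pair was that of *AC167363.2*. No window of 50 bp around these 3 summits held the Myb motif, although CAACTG occurred 73 bp from the first summit.

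The stronger *Cdkn1a* peaks lay downstream, at *Rab44*, a gene for a Rab-family GTPase. One, 10866 bp past the end of *Cdkn1a* and 2552 bp from a start of *Rab44*, had a fold enrichment of 10.6 (7.66 to 14.3) from 40 reads. The other, 10 bp from a start of *Rab44*, had a fold enrichment of 7.43 (5.51 to 9.82) from 47 reads over a background of 4 reads. The interval of the 10.6-fold peak lay above those of the 3 peaks inside *Cdkn1a*, and it overlapped that of the other *Rab44* peak. The peak at the *Rab44* start held CAGTTG, the opposite strand of CAACTG, near its summit, and in the stronger peak the nearest Myb motif was 68 bp away.

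*Cdkn1b* encodes p27, an inhibitor linked to the quiescence of blood progenitors, and lies on chromosome 6 from 134920401 to 134925513 on the forward strand. It had 8 peaks, and 7 of them had *Cdkn1b* as the nearest protein-coding gene. Inside the gene, the fold enrichment was 3.43 with 21 reads at the start site (28 bp away), 3.59 in the intron, and 6.06, 4.17 and 4.03 along the 3′ UTR, the last with *Lockd* as the nearest start. The 6.06-fold peak (4.03 to 8.80), 2173 bp from the start, was the highest of these, and its interval overlapped those of the other 4. A peak 3144 bp upstream reached 5.46.

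Beyond the gene, 2941 bp past its end, lay the peak with the highest fold enrichment of the 49, at 12.6 (9.40 to 16.4) with 50 reads. Its summit was 638 bp from a start of *Lockd*, a long noncoding RNA gene downstream of *Cdkn1b*. The peak was 4814 bp wide, and 44 of all peaks, or 0.171%, were at least as wide. It held Myb motifs at 5 places, the nearest 291 bp from the summit, and no number expected for its width was computed. A further peak of 6.72-fold (4.50 to 9.70) lay 22277 bp upstream at *Gpr19*, which encodes an orphan receptor, and at its antisense gene *2810454H06Rik*, whose start was 163 bp away. None of the 8 *Cdkn1b* summits had the motif within 50 bp.

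*Cdkn1c* encodes p57, an imprinted inhibitor that holds hematopoietic stem cells in quiescence, and lies on chromosome 7 from 143458339 to 143461050 on the reverse strand. No peak was listed inside it or within 30 kb. The nearest summit was 34449 bp away and closer to *Phlda2*, with a fold enrichment of 3.33 and 16 reads (9.15 to 25.98). Within 100 kb there were 5 peaks. A peak list gives no signal where no peak was called, so weaker binding at *Cdkn1c* was not detectable here.

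The Ink4 genes differed in the number of their peaks. *Cdkn2a* and *Cdkn2b* sit side by side on chromosome 4, reverse strand, at 89274471 to 89294653 and 89306299 to 89311039. *Cdkn2a* encodes p16Ink4a from an inner start site and p19Arf, an inhibitor of Mdm2, from an outer one, and *Cdkn2b* encodes p15. *Cdkn2a* had 2 peaks. The first lay in the intron that follows the p16Ink4a first exon, 634 bp from the inner start and 13095 bp from the outer one, with a fold enrichment of 3.53 and 10 reads (4.80 to 18.4), the fewest of the 49. Its −log10 q-value of 1.44 was also the lowest of the 49. The same peak was the only one assigned to *Cdkn2b*, 24741 bp past its end. The second *Cdkn2a* peak, 2899 bp past the gene and 1015 bp from the noncoding *Gm12606*, had a fold enrichment of 5.25 (3.52 to 7.58). No Myb motif was found in either peak.

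*Cdkn2c*, which encodes p18, lies on chromosome 4, reverse strand, at 109660876 to 109667189 and had 6 peaks. A peak 2570 bp wide covered its promoter, with the summit in the 5′ UTR 670 bp from the start and a fold enrichment of 8.22 (5.46 to 11.9) from 25 reads. That was the highest value at a promoter of any of the 10 genes, and its background was the lowest shared value. The peak held 5 Myb motifs, the nearest 83 bp from the summit, and no number expected for its width was computed. The other promoter peak, 829 bp upstream, was at 3.84. A pair of peaks at the promoter of *Faf1*, which encodes a Fas-associated factor, had fold enrichments of 4.67 and 4.15, and the remaining pair downstream, at the noncoding *9630013D21Rik*, had 3.33 and 3.84. The intervals of these 4 overlapped that of the promoter peak, except the interval of the 3.33-fold peak (1.95 to 5.40).

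*Cdkn2d* encodes p19Ink4d and lies on chromosome 9, reverse strand, at 21288410 to 21291407. It had 9 peaks, a number that 4.89% of protein-coding genes reach, in a dense neighborhood where only 2 of the 9 had *Cdkn2d* as the nearest protein-coding gene. The promoter peak, 167 bp upstream of the start, had a fold enrichment of 5.55 (4.05 to 7.45) from 42 reads over a background of 5 reads. Its sequence, shown above, held the Myb motif TAACTG, centered 6 bp from the summit, and an E2F motif beside it. Inside the gene, intron peaks at 828 and 1715 bp had 3.85 and 3.48, both also within 3 kb of a start of *Kri1*.

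The other 6 peaks lay outside *Cdkn2d*, 5 of them at promoters of other genes. A peak 309 bp past the end of *Cdkn2d*, at *Kri1*, which encodes a ribosome assembly factor, reached 6.20 (4.47 to 8.40) and was 2676 bp wide, and one 22990 bp past it, at the autophagy gene *Atg4d*, reached 4.34. Upstream, a peak 1289 bp from a start of *Ap1m2*, which encodes an adaptor of vesicle transport, had a fold enrichment of 11.5 (8.34 to 15.6) from 40 reads and no Myb motif anywhere in the peak. Another *Ap1m2* peak had 4.95, a peak between genes 4.70, and a peak at the choline transporter gene *Slc44a2* 4.69. The nearest start of the last 2 belonged to the noncoding *Gm39302*, at 3790 and 9 bp. The *Slc44a2* peak, 29201 bp from *Cdkn2d* with 17 reads, was the last inside the limit of 30 kb. The first outside it was 30285 bp from *Cdkn2d*, with a fold enrichment of 3.98 and also 17 reads.

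In the p53 axis, *Trp53* had promoter peaks that it shared with a neighbor, and *Mdm2* had a promoter peak and an upstream pair. *Trp53* lies on chromosome 11, forward strand, at 69580359 to 69591873 and had 6 peaks. The first, 956 bp upstream of *Trp53* and 79 bp from a start of *Wrap53*, which is transcribed in the other direction, had a fold enrichment of 5.44 (3.67 to 7.81). The second, in the first intron 921 bp from the start and also within 3 kb of a start of *Wrap53*, had 5.89 (4.21 to 8.05) with 37 reads. Another, also in that intron, had 6.76 (4.56 to 9.69) with 27 reads and lay 2877 bp from an inner start site. The 3 intervals overlapped, so no order among them was resolved.

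Another *Trp53* peak, at 3.50 with 13 reads (6.92 to 22.2), lay in a coding exon 544 bp from another inner start. Downstream, a peak at the sodium pump subunit gene *Atp1b2* had 5.98 and a weaker one 3656 bp from its start had 3.28 with 20 reads. The 3.28-fold peak was the only one of the 49 with a pair of Myb motifs within 50 bp of the summit, CAACTG and CAGTTA.

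*Mdm2* encodes the ubiquitin ligase that limits p53 and lies on chromosome 10, reverse strand, at 117688875 to 117710758. It had 4 peaks. The promoter peak, in the 5′ UTR 133 bp from a start, had a fold enrichment of 5.25 (3.52 to 7.58) from 26 reads. A second, in intron 3 and 417 bp from an inner start, had 4.44 with 16 reads. The other pair lay 20960 and 21622 bp upstream, 13224 and 12562 bp from the nearest start, that of *Slc35e3*, at 4.18 (2.49 to 6.68) and 6.02 (4.14 to 8.49). The weaker of that pair held TAACTG centered 31 bp from its summit. All 4 intervals overlapped.

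*Rb1* encodes the retinoblastoma protein and lies on chromosome 14, reverse strand, at 73183673 to 73325822, the longest of the 10 genes at 142150 bp. It had 9 peaks, or 4.45 per 100 kb of window. At the promoter, a peak 539 bp upstream had 4.48 (2.90 to 6.66) with 22 reads and the motif CAGTTG centered 5 bp from the summit. A peak in the first intron, 877 bp from an inner start and 1058 bp from the outermost one, had 3.90. Farther into that intron, a peak 3398 bp from an inner start and 3579 bp from the outermost one reached 6.46 (4.14 to 9.67).

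The strongest *Rb1* peak was in intron 17, far from every start site, with a fold enrichment of 10.9 (7.64 to 15.01) and 34 reads over a background of 1.50 reads. *Lpar6*, a lysophosphatidic acid receptor gene, is annotated inside the same intron, and its start was the nearest protein-coding one, at 15211 bp. The other peaks of intron 17 had 5.22, at 752 bp from an annotated inner start of *Rb1* and within the promoter window of *Lpar6*, and 3.84. Outside the gene, the 2 downstream peaks were closest to *Rcbtb2* with 5.67 and 4.18, and 1 lay 8122 bp upstream with 3.997, at 1148 bp from the start of the pseudogene *Gm49131*. The interval of the 10.9-fold peak overlapped those of the 6.46-fold and 5.67-fold peaks and lay above those of the other 6.

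**Figure D3:**
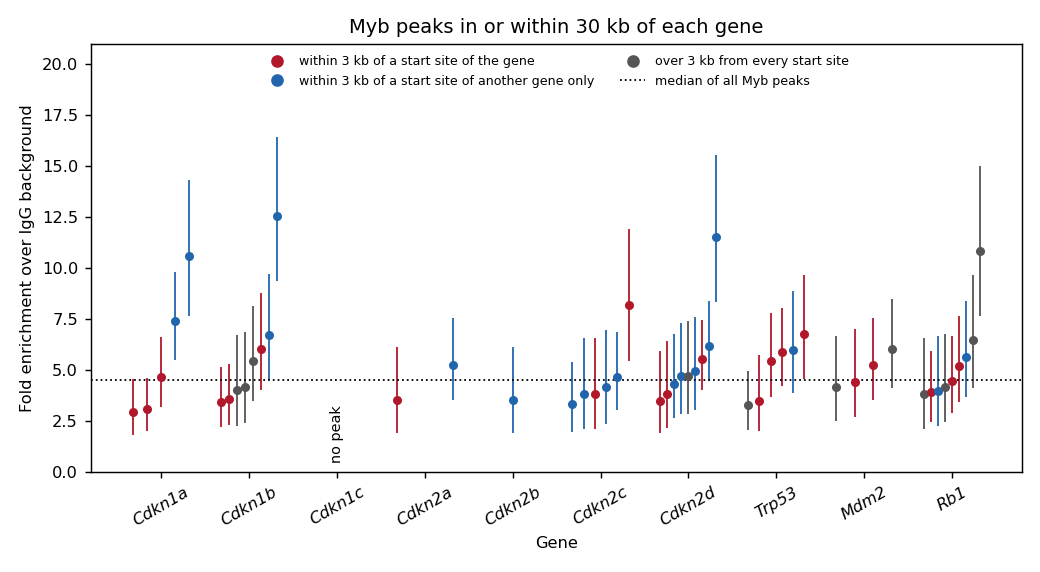
Fold enrichment over the IgG background of every Myb peak in or within 30 kb of each gene (points, ordered by value within a gene), with exact Poisson 95% intervals on the Myb reads (lines), in red within 3 kb of a start of the gene, in blue within 3 kb of a start of another gene only, and in grey otherwise. The highest point is 12.6 at *Cdkn1b*, the promoter peaks of the genes run from 2.97 to 8.22, and the dotted line is the median of all peaks, 4.51.

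The strongest peaks were not at the promoters of the 10 genes. Promoter peaks of the 10 genes had a median fold enrichment of 4.44, from 2.97 to 8.22, over 21 peaks. The median was similar, at 4.54, over all 14845 peaks within 3 kb of any start site. A fold of 10 was taken as a mark after these values had been seen, so the following counts are descriptions. No promoter peak of the 10 genes reached it, and 0 of 10 allows a share of up to 30% of genes at 3 counts (30.8% by the exact 95% interval), against 2.87% of protein-coding genes with such a promoter peak. Within 30 kb, 4 of the 49 peaks, or 8.16%, were at least 10-fold, against 4.47% of all peaks, and none of the 4 was within 3 kb of a start of the assigned gene. The gene's own promoter held the strongest peak for 2 of the 9 genes with a peak, *Cdkn2c* and *Trp53*.

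By its strongest peak, *Cdkn1b* came first at 12.6, followed by *Cdkn2d* at 11.5, *Rb1* at 10.9, *Cdkn1a* at 10.6 and *Cdkn2c* at 8.22. *Trp53* at 6.76, *Mdm2* at 6.02, *Cdkn2a* at 5.25 and *Cdkn2b* at 3.53 followed. Each neighboring pair in this order had overlapping intervals. The interval at *Cdkn1b* (9.40 to 16.4) lay above those of *Mdm2*, *Cdkn2a* and *Cdkn2b*, and 9 of the 49 peaks, itself included, had intervals that reached it.

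The higher IgG backgrounds fell mostly at promoters. The IgG background was at least 4 reads, within a tolerance of 0.01 for the rounding of the deposited values, at 10 of the 49 summits (20.4%), against 12.4% of all peaks, and 7 of these 10 were promoter peaks of the 10 genes. Fold enrichment divides by this background, so a promoter such as that of *Cdkn2d*, with 42 reads, had a lower fold than the *Ap1m2* peak with 40. The part of background in the lower fold at the promoters was not tested. Summits of the 49 peaks had a median GC content of 50.5%, against 48.2% for all peaks, and a median peak width of 729 bp, against 577 bp.

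**Figure D4:**
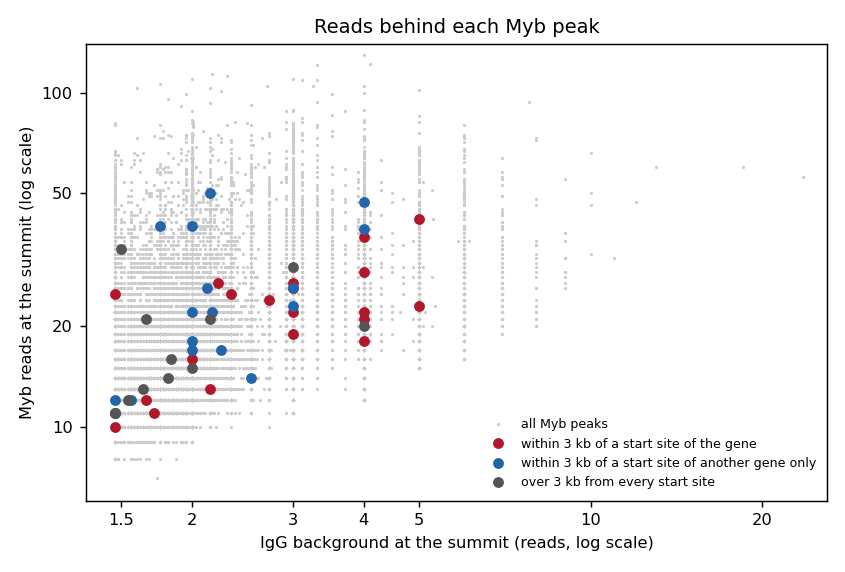
Myb reads at each summit, before scaling, against the IgG background used for that summit, both in reads on log axes. All Myb peaks are light grey. For the 10 genes, peaks are red within 3 kb of a start of the gene, blue of another gene only, dark grey of none. The red points, promoter peaks, at a background of 4 and 5 reads have 18 to 42 Myb reads, and the peak with 50 reads, near *Lockd*, is the highest of the colored points.

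The Myb motif was present within 50 bp of 5 of the 49 summits, or 10.2% (exact 95% interval, 3.40% to 22.2%). The share was 16.7% of all peaks. In windows of the same length centered 500 bp to each side of the 49 summits it was 14.3% (8.04% to 22.8%), and in those of all peaks 10.5%. The interval of the 49 summits held the 3 other shares, so the summits could not be told apart from their flanks or from all peaks. Of the 4 forms, CAACTG and TAACTG each occurred at 3 summits, with 1 summit holding both, and CAACGG and TAACGG at none. Peaks with the motif had fold enrichments of 3.28, 4.18, 4.48, 5.55 and 7.43.

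Motifs of 6 other families and the shorter core AACNG, which every form of the Myb motif contains, were counted on both strands of the same windows. The core occurred at 42.9% of the 49 summits against 54.3% of all, ETS motifs (CCGGAA or AGGAAG) at 18.4% against 19.8%, GATA motifs (AGATAA or TGATAA) at 12.2% against 13.8%, and the RUNX motif TGTGGT at 8.16% against 9.79%. The C/EBP motif TTGCNNAA and the p53 half-site occurred at 1 summit each, against 6.16% and 3.05% of all peaks. The E2F motif occurred at 2 of the 49 summits, or 4.08% (0.498% to 14.0%), against 0.585% of all peaks. It was singled out after its values had been seen, and its interval, which rests on 2 peaks, reached below the share of all peaks. The 2 were the *Cdkn2d* promoter and the first intron of *Cdkn1a*, both shown above.

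Other genes of the same pathway were counted from 5 lists with 63 genes. Promoter peaks occurred at 50 of the 63, or 79.4%, and peaks within 30 kb at 58, or 92.1%, against the background of 39.9% and 62.8% of protein-coding genes. With the promoter window cut to 500 bp, 45 of the 63 kept a promoter peak, against 4 of the 10 genes and 31.8% of protein-coding genes. The counts by list that follow use 3 kb. Among 11 cyclins and CDKs, which the inhibitors act on, 10 had a promoter peak, highest at *Ccne1* (8.88), *Ccnd2* (8.46) and *Cdk6* (8.28). *Ccnd1* had no peak within 30 kb. Among 12 pocket proteins, E2F and DP genes, 10 had a promoter peak. *E2f2*, which encodes an E2F activator, had the highest of any list at 18.95 with 80 reads (63.4 to 99.6), followed by *Tfdp2* (9.63) and *Tfdp1* (8.21), which encode E2F partners. *E2f6* had none within 30 kb.

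Regulators of p53 had promoter peaks at 8 of 11 genes, led by *Mdm4* (11.4), the p53 inhibitor related to *Mdm2*, the damage kinase gene *Atr* (10.9) and the phosphatase gene *Ppm1d* (10.4). *Trp63* had none within 30 kb. Among 22 p53 target genes, 15 had a promoter peak, led by *Bbc3* (12.4), which encodes the death protein Puma, *Sesn1* (11.2) and *Gadd45a* (9.13), and *Rrm2b* and *Zmat3* had none within 30 kb. The peak counted for *Sesn1* was closest to *Cep57l1*. All 7 genes for degradation of CDK inhibitors had a promoter peak, led by *Cul4a* (12.9), *Cul1* (7.002) and *Skp1a* (6.60), and the *Cul4a* peak was closest to *Pcid2*. No test was run between the lists and the 10 genes, and a peak is no measure of the expression of a gene.

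**Figure D5:**
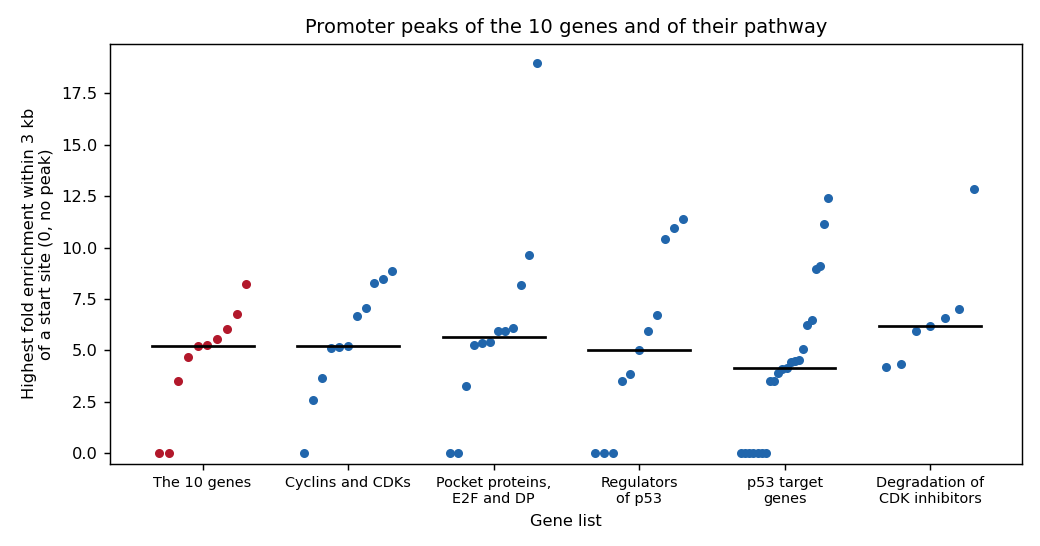
Highest fold enrichment of a Myb peak within 3 kb of a start site (vertical axis, 0 where there was no peak) for each of the 10 genes (red) and for each gene of 5 pathway lists (blue), with the median of each list as a bar. The 10 genes reach 8.22 at *Cdkn2c*, below *E2f2* at 18.95, *Cul4a* at 12.9, *Bbc3* at 12.4 and *Mdm4* at 11.4.

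Lineage genes were counted as a check of the cells. A peak within 30 kb was present at all 5 progenitor genes (*Kit*, *Cd34*, *Flt3*, *Gata2* and *Mpo*), at 3 of 5 genes of mature lineages that the depletion removes, and at none of 5 genes of other tissues. Over the whole list, summits were covered by 7 to 130 reads, and 7.24% of all peaks had a q-value above 0.05, against 0 of the 49. That count allows a share of up to 7.25% by the exact 95% interval, which just held the share of all peaks. The limit at 3 counts, 6.12%, lay below that share. The 2 limits disagree, so no difference is read from the count.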

How the data were processed

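Myb ChIP-Seq was analyzed from 1 library of WT Lin– bone marrow cells, with 1 IgG library as background, and groups were taken from the sample titles. Per the labels, chromatin was sheared by 14 cycles of sonication, 1 μg was precipitated with 1.5 μg of antibody, and Tn5-tagged DNA was amplified by 12 PCR cycles. Submitters' processing notes name cutadapt 1.15, BWA 0.7.13, Picard and MACS2 2.1.1.20160309, with mm10 as the build. Peaks were kept by the authors through overlap of calls from pseudo-replicates, which are read subsets of 1 library.

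The fold enrichment deposited by the authors is a ratio of scaled Myb pileup to IgG background. The deposited p-values and q-values are −log10 values and belong to single peaks. The deposited score was 10 times the −log10 p, cut to a whole number, in 25787 of 25793 peaks and was not used.

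Members, gene lists and motifs were chosen with earlier results of these data known. All 10 genes are named with every peak, the gene with the nearest start site and the protein-coding genes whose promoter holds it, and each list names the 3 genes with the highest promoter fold enrichment and those without a peak within 30 kb. Depth is not listed, so whole reads were recovered from fold enrichment and p-value with 1 scale of 0.769, which gave whole reads in 100% of peaks within 0.0005 on the −log10 p scale, and likewise within 0.0001. More than 1 read number was possible for 0.0620% of peaks. The scripts used Python 3.11.15, numpy 2.4.6, pandas 2.3.3 and scipy 1.17.1, and read recovery was tested on simulated data. Shares have exact Clopper-Pearson 95% intervals, and the limit for a count of 0 is given as 3 counts of the total beside them. All intervals cover counting error only, since each group was 1 library, and they leave out the error of the IgG background. No p-value was computed across peaks, which are not replicates. Alternatives covered the window, the promoter width, the q-value limit and the form and window of the motif.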

Additional observations from a re-analysis of the deposited data

How the results depend on the processing

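No paired analysis was possible because each group had 1 library and no test was made. Depth limits every value, since 1 library gives no spread between mice and 42.9% of the 49 summits rest on fewer than 20 reads. Results were recomputed with 1 choice changed at a time, and 26 of 34 values stayed within 1.5 times the count or within the interval. A window of 3 kb around the genes left 31 peaks, and a limit of 5 on the −log10 q-value left 23, as fewer peaks qualify. With that q-value limit the median fold enrichment was 6.02 (6.23 for all peaks under the same limit). With a promoter window of 500 bp, 4 of the 10 genes had a promoter peak. The share of the 49 peaks at promoters of any gene was 55.1% (exact 95% interval, 40.2% to 69.3%) within 1 kb, against 41.6% of all peaks. Within 500 bp it was 30.6% (18.3% to 45.4%), against 31.9%. Both intervals held the share of all peaks, so neither of these windows separated the 49 from all peaks. With AACNG as the motif 42.9% of the summits had a match, and searched over the whole peak 55.1% did, against 54.3% and 58.6% of all peaks. The number of genes with a peak ran from 8 to 10 under the other windows, limits and the assignment by nearest start site. Fewer or more bases searched are the construction of these windows, and no other cause was tested.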

Other observations

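The RefSeq promoter table (GRCm38.p6) held 11 promoters of 8 of the genes, each from 250 bases before to 50 after a start, and none for *Cdkn1c* and *Rb1*. Myb peaks overlapped 7 of the 11, at *Cdkn1a* (the inner start), *Cdkn1b*, *Cdkn2c* (both starts), *Cdkn2d*, *Trp53* and *Mdm2*, and did not overlap the outer *Cdkn1a* promoter, either *Cdkn2a* promoter or the *Cdkn2b* promoter. The summit itself lay outside the promoter sequence in all 11. A Myb motif was present in 2 of the 11, the inner *Cdkn1a* promoter and the outer *Cdkn2c* promoter, against 28.3% of the 32851 promoters in the table. A p53 half-site was present in 4 of the 11, at *Cdkn1a*, *Cdkn2d*, *Trp53* and *Mdm2*, against 8.36% of all promoters. At *Cdkn1a* these half-sites were in the outer promoter, 2909 and 2931 bp from the nearest Myb summit. A match is a description of the letters and was read no further.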
